A study of Mus musculus with 6 samples.

Results

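Zbtb16, Cxcr6, Ccl5, Gzma and Prf1 are genes of innate-like and cytotoxic T cells, and their transcripts were read in cultured mouse CD4+ T cells with and without tunicamycin. The 5 genes were picked by symbol from 13685 gene rows, after their values in this comparison and their variation over the 6 libraries had been seen. Their differences between the groups are therefore given as a description, and the fitted intervals and calls printed with them are no test of these genes. All 5 had a row and passed the filter on low counts, which left 3613 genes.

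The cells came from spleen and mesenteric lymph node of wild-type C57BL/6 mice. CD4+ T cells were isolated, and the CD25- fraction, labelled as not regulatory T cells, was held in culture for 4 h, either with vehicle (3 libraries) or with tunicamycin at 0.15 µg/mL (3 libraries). Tunicamycin blocks N-linked glycosylation and is used to provoke the unfolded protein response of the endoplasmic reticulum. The titles number the libraries within each group as technical repeats, and the labels put them in the same batch. A spread or p-value here measures the variation between these libraries, which may be technical. Counts summed over the analysed rows ran from 7412151 to 9495725 in vehicle and from 10584276 to 11211270 in tunicamycin. Of 19 genes listed for CD4 T cells 9 were analysed. Their summed level was 3467 to 3719 TPM (a transcript abundance scaled for length and depth) in vehicle and 3609 to 3804 TPM in tunicamycin. Most of these 9, such as Cd3e and Trbc2, are genes of T cells in general, so the sum does not set CD4 T cells apart. Cd4 itself was not analysed here.

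Innate-like T cells leave the thymus already able to act like effector cells, and they respond to cytokines and to non-peptide antigens faster than naive T cells. Their programme is set by PLZF, the zinc finger transcription factor encoded by Zbtb16. CXCR6, a chemokine receptor that binds CXCL16, and CCL5, a chemokine kept ready in memory and innate-like cells, mark such cells in lymphoid tissue and liver. Granzyme A and perforin are carried in the cytotoxic granules of NK cells, CD8 T cells and some innate-like T cells: perforin opens the membrane of the target cell and granzyme A is a protease that enters it. In bulk RNA, fewer cells of a type and less RNA per cell cannot be told apart.

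Promoter sequences were read for the members, since several of them had higher means in the same group. RefSeq windows on GRCm38.p6 were matched for 3 of 5 members, Cxcr6, Gzma and Prf1. The 250 bases before the annotated start of each are shown 5′ to 3′ on the strand of the gene, with capitals marking the letters TGTGGT, the core motif of RUNX factors, or their reverse complement. They lie at chr9:123806227-123806476 (plus strand) for Cxcr6, chr13:113100982-113101231 (minus strand) for Gzma and chr10:61297586-61297835 (plus strand) for Prf1.
Cxcr6: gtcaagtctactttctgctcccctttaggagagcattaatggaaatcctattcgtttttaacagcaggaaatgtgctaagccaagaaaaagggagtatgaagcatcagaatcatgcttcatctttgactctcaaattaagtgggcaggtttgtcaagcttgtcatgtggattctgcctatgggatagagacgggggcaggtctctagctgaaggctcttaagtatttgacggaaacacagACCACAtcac
Gzma: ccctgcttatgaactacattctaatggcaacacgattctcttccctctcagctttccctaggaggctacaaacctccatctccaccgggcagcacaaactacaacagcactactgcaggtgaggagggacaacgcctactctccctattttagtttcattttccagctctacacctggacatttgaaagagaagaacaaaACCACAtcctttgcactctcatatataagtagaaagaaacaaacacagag
Prf1: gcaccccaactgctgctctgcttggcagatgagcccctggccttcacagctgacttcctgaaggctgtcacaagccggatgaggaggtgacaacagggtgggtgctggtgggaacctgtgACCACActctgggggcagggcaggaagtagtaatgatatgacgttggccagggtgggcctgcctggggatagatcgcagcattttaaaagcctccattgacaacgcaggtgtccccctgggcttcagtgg
Each of the 3 windows held the RUNX letters once, as the reverse complement, beginning 10 bases before the start in Cxcr6, 50 bases in Gzma and 130 bases in Prf1. The same letters, on either strand, were in 14% of 32851 promoter windows of this length. RUNX factors, Runx3 among them, are known regulators of cytotoxic genes, and Runx3 was not analysed here. The general E-box CANNTG was also in each of the 3 windows, and in 66.2% of all windows. In all, 25 motifs were looked for on both strands, and these were chosen after the members' values had been seen. The others included a longer RUNX motif (TGTGGTTT, which contains the core), the T-box motif GGTGTGA, the E-box form CACCTG, the ETS core CCGGAA with its variant form AGGAAG, the AP-1 motif TGANTCA, and a broad and a strict NF-kB motif. Further ones were the STAT motif TTCNNNGAA with its stricter form TTCNNAGAA, the interferon-stimulated response element, the interferon regulatory factor motif TTTCACTTT, the CREB motif TGACGTCA, and the TATA box TATAAA. The list also held the NFAT motif GGAAAA, the EGR motif GCGTGGG, the GATA motif AGATAA, the SP1 motif GGGCGG, the CCAAT box, the KLF motif GGGTG, and 3 elements of the unfolded protein response. Those elements, the letters TGACGTG (in 1.65% of all windows), the ATF4 element TGATGNAAT (0.816%) and the endoplasmic reticulum stress element ERSE (0.113%), were in none of the 3 windows. A match or a missing match describes these letters in these windows and nothing about binding. Prf1, whose level was about the same in both groups as given further on, carried the RUNX letters like Cxcr6 and Gzma. No window was matched for Zbtb16 and Ccl5, and a link between the letters and the levels was not tested.

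Per length, Ccl5 was the most abundant of the members and Zbtb16 the least. In vehicle the mean levels were 50.0 ± 11.3 TPM for Ccl5, 7.49 ± 0.85 TPM for Cxcr6, 7.32 ± 0.93 TPM for Prf1, 2.05 ± 0.66 TPM for Gzma and 0.55 ± 0.10 TPM for Zbtb16 (SD, n = 3). In tunicamycin they were 67.3 ± 8.34 TPM for Ccl5, 14.6 ± 5.57 TPM for Cxcr6, 7.71 ± 0.44 TPM for Prf1, 4.60 ± 1.97 TPM for Gzma and 1.52 ± 0.70 TPM for Zbtb16 (SD, n = 3). The order was the same in both groups, and the one pair of neighbours whose libraries overlapped was Cxcr6 and Prf1 in vehicle.

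**Figure D1:**
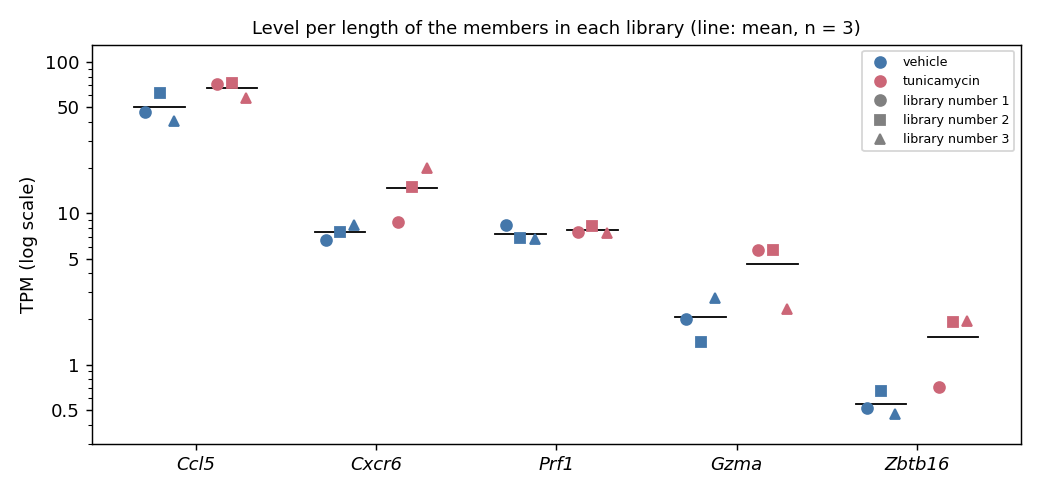
TPM of each member on a log axis, with 1 point per library, blue for vehicle and red for tunicamycin, the shape giving the library number, and a line at the group mean. Ccl5 lies between 40.7 and 72.5 TPM and Zbtb16 between 0.47 and 1.94 TPM, while the Cxcr6 and Prf1 libraries of the vehicle group overlap.

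CPM, counts scaled to library size with TMM factors, were used to compare each gene between the libraries. Zbtb16 (ENSMUSG00000066687), the transcription factor PLZF, was at 8.34, 13.9 and 9.80 CPM in vehicle replicates 1, 2 and 3. The tunicamycin libraries, in the same order, were at 13.3, 35.9 and 33.3 CPM. Tunicamycin replicates 2 and 3 were far above every vehicle library, whereas tunicamycin replicate 1 lay just below vehicle replicate 2, so the groups overlapped. The fitted log2 fold change was 1.37 with an SE of 0.36 (95% interval 0.56 to 2.17), a 2.58-fold difference of tunicamycin over vehicle. On the TPM scale the groups did not overlap, with a highest vehicle library at 0.66 TPM and a lowest tunicamycin library at 0.71 TPM. The gene spans 48654297 to 48836222 on chromosome 9 of GRCm38.

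Cxcr6 (ENSMUSG00000048521), the receptor of CXCL16, was at 24.6, 28.5 and 32.1 CPM in vehicle replicates 1 to 3. The tunicamycin libraries, in the same order, had 34.4, 56.7 and 78.1 CPM. It was the one member whose groups did not overlap on the CPM scale, although tunicamycin replicate 1 stood close to vehicle replicate 3. Groups that did not overlap with tunicamycin higher were found for 6.62% of all genes tested. The fitted log2 fold change was 0.99 with an SE of 0.27 (95% interval 0.36 to 1.61). On GRCm38 the gene lies on chromosome 9 from 123806475 to 123811760, where it overlaps Fyco1 on the other strand. Whether the counting used strand is not given in the sources used here, and reads of the overlapping genes may not be told apart. Fyco1 was not analysed here.

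Ccl5 (ENSMUSG00000035042), the chemokine also called RANTES, was at 64.0, 85.4 and 58.4 CPM in vehicle replicates 1 to 3. Under tunicamycin these values were 97.8, 96.8 and 79.4 CPM. Vehicle replicate 2 exceeded tunicamycin replicate 3, so the groups overlapped. The fitted log2 fold change was 0.40 with an SE of 0.15 (95% interval 0.08 to 0.72), or 1.32-fold. Ccl5 lies on chromosome 11 from 83525778 to 83530518 on GRCm38.

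Gzma (ENSMUSG00000023132), the protease granzyme A, had few counts. Vehicle replicates 1 to 3 held 30, 21 and 52 counts, against 123, 129 and 55 under tunicamycin. Scaled to depth these were 4.03, 2.80 and 5.66 CPM in vehicle and 11.6, 11.3 and 4.98 CPM in tunicamycin. Tunicamycin replicates 1 and 2 were above all vehicle libraries, and tunicamycin replicate 3 was inside the vehicle range. The fitted log2 fold change was 1.15 with an SE of 0.45 (95% interval 0.17 to 2.13). It was 1.74 when both libraries numbered 3 were left out and 0.77 without both libraries numbered 2, a choice made after seeing the data. Gzma lies on chromosome 13 from 113093825 to 113100981 on GRCm38.

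Prf1 (ENSMUSG00000037202), which encodes perforin, was at 75.8, 63.8 and 64.7 CPM in vehicle replicates 1 to 3. Under tunicamycin the values were 67.5, 72.6 and 66.4 CPM, within the range of the vehicle libraries. The fitted log2 fold change was 0.02 with an SE of 0.11 (95% interval -0.23 to 0.27), a range that leaves room for small changes in either direction. Its sign was above 0 in 15 of 19 alternative analyses, among them the scalings with DESeq2 size factors (0.01) and without a composition factor (0.06). Prf1 lies on chromosome 10 from 61297833 to 61304680 on GRCm38.

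**Figure D2:**
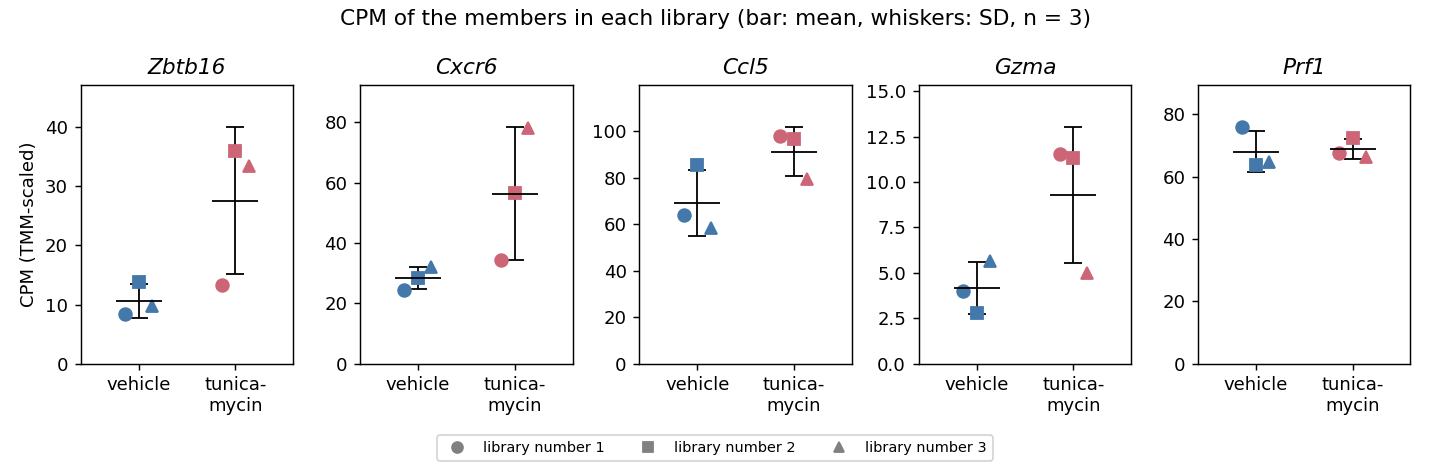
CPM of each member in each library on linear axes that start at 0, with the group mean as a bar and the SD as whiskers (n = 3), and the shape giving the library number. Cxcr6 is the member whose groups stay apart, Zbtb16 and Gzma each have 1 tunicamycin library at the level of the vehicle libraries, and Prf1 lies between 63.8 and 75.8 CPM throughout.

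Of the 5 members 4 had a fitted interval that lay above 0, as did 3.24% of all genes tested. In the same fit 0 of 5 passed the threshold of 0.05 in edgeR after Benjamini-Hochberg adjustment over all genes. Over all genes tested, 0.083% passed that threshold, 0.0554% as higher and 0.0277% as lower. In the 19 alternative analyses Cxcr6 passed 0.05 in 3 and Zbtb16 in 2, and Ccl5, Gzma and Prf1 in 0. A fold above 1.5 was fitted for 3 of the 5, Zbtb16, Cxcr6 and Gzma, and for 7.42% of all genes tested. Since the members were chosen on this comparison, nothing is read from these counts.

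The members did not share one pattern over the libraries. The highest libraries were tunicamycin replicates 2 and 3 for Zbtb16 and Cxcr6, and tunicamycin replicates 1 and 2 for Ccl5 and Gzma. For Prf1 the highest was vehicle replicate 1. Within tunicamycin the highest library was 2.69 times the lowest for Zbtb16, 2.27 times for Cxcr6 and 2.32 times for Gzma, against 1.23 times for Ccl5 and 1.09 times for Prf1. Within vehicle these ratios were 1.66 for Zbtb16, 1.31 for Cxcr6, 2.02 for Gzma, 1.46 for Ccl5 and 1.19 for Prf1.

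Counting error alone would give a chi-square per degree of freedom near 1 between the libraries of a group. For Cxcr6 it was 4.07 in vehicle and 91.6 in tunicamycin, and for Zbtb16 5.85 in vehicle and 59.7 in tunicamycin. For Gzma it was 4.03 in vehicle and 16.5 in tunicamycin. Ccl5 had 23.5 in vehicle and 13.0 in tunicamycin, and Prf1 5.08 in vehicle and 1.77 in tunicamycin. These values describe genes whose variation over the libraries had already been seen.

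Over the 6 libraries Zbtb16 and Cxcr6 had a Pearson r of 0.93 and a Spearman rho of 0.77 of their log2 CPM, given as a description because the members were chosen with their co-variation known. The libraries of a group share a treatment, and the r of the deviations from the group means was 0.82 for this pair. Without the 2 libraries farthest from the median of Zbtb16, r was 0.57. Leaving out extreme values narrows the range, which can lower r by itself, so nothing is read from this lower value. Zbtb16 and Ccl5 had an r of 0.61 over all libraries and 0.09 for the deviations from the group means. Gzma had an r of 0.37 with Zbtb16 and 0.36 with Cxcr6 over all libraries, and its deviations from the group means ran the other way, at -0.51 with Zbtb16 and -0.55 with Cxcr6. The r of Prf1 with the other members lay between -0.07 and 0.26.

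Genes most like each member were ranked by Pearson r of log2 CPM over the 6 libraries, among 2458 genes whose mean reached 3 log2 CPM. For Zbtb16 these were Olfr539 (0.99), Gm14085 (0.97) and Zfp445 (0.97), and 0.854% of the ranked genes had an r over 0.9. For Cxcr6 they were Ranbp6 (0.99), Ercc6 (0.98) and Galnt4 (0.97), with 0.57% over 0.9. For Ccl5 they were Gm3362 (0.97), Eif2ak2 (0.96), which encodes the double-stranded RNA-dependent kinase PKR, and Batf (0.96), an AP-1 family transcription factor, with 1.59% over 0.9. For Gzma they were Churc1, Neil2 and Pomk (0.947, 0.946 and 0.945), and for Prf1 Msl3l2 (0.99), Erlin2 (0.96) and Olfr784 (0.95). The share over 0.9 was 0.448% for Gzma and 0.692% for Prf1. On the log2(TPM + 1) scale Ranbp6, Batf and Pomk were the 3 of these 15 genes still among the 3 most alike.

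Other genes were read from 20 lists, written with earlier results of these data known. The lists cover innate-like and cytotoxic genes, other T cell states, other cell types and the unfolded protein response. Of 277 listed genes 107 had a row and 82 passed the filter on low counts. In edgeR 0 of the 82 were higher and 0 were lower, and DESeq2 without its filter on the mean count and limma on log2(TPM + 1) called 0. DESeq2 with that filter also called 0, but it gave no adjusted p to genes with a mean count under 2661. Its 0 therefore says nothing about the listed genes below that mean. At an unadjusted p under 0.05, Xcl1 and Klri2 were higher and Cd3e, Cd2 and Calr lower, all of them named from their values. These 5 were 6.1% of the listed genes, and 6.42% of all genes tested passed at that level, 3.24% as higher and 3.18% as lower. The groups did not overlap for 11% of the listed genes against 12.6% of all genes tested, of which 5.95% had tunicamycin lower.

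Among transcription factors of innate-like and effector cells, 0 of 4 tested genes beside Zbtb16 passed, with a median log2 fold change of 0.06 against 0.00 over all genes tested. Tbx21, which encodes T-bet, the factor of type 1 effector and NK cells, was fitted at -0.74 on the log2 scale (95% interval -1.64 to 0.16). Id3, an inhibitor of E proteins, was at 0.32 (95% interval -0.11 to 0.75) and Nfil3, a factor of the NK cell lineage, at 0.18 (95% interval -0.28 to 0.63). Klf2, which supports the recirculation of resting T cells, was at -0.05 (95% interval -0.18 to 0.08). Tbx21 was at 8.60, 22.9 and 8.50 CPM in vehicle and 7.51, 9.90 and 6.52 CPM in tunicamycin in replicate order, so vehicle replicate 2 stood far above the other libraries. Of the genes of innate-like T cell surface proteins and signalling, Cd69 alone was tested, at 0.24 (95% interval -0.08 to 0.55).

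Among cytotoxic granule genes, 0 of 5 tested genes beside Gzma and Prf1 passed, with a median of 0.07. Gzmb, the protease granzyme B, was at 0.72 (95% interval -0.54 to 1.98), with 13, 41 and 32 counts in vehicle and 54, 113 and 30 under tunicamycin, in replicate order. In CPM, tunicamycin replicate 3 lay within the vehicle range, as for Gzma, and so did replicate 1 (5.07 CPM, against up to 5.47 CPM in vehicle). Lamp1, a lysosomal membrane protein that also lines granules, was at -0.02 (95% interval -0.14 to 0.11). The granule protease gene Ctsw was at 0.07 (95% interval -0.12 to 0.26), and Cst7, an inhibitor of granule cathepsins, was at -0.14 (95% interval -1.19 to 0.90).

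Among chemokines and cytokines, 0 of 4 tested genes beside Ccl5 passed, with a median of 0.47. Xcl1, the chemokine lymphotactin, was at 1.55 (95% interval 0.03 to 3.07), with 10, 26 and 10 counts in vehicle and 20, 124 and 50 in tunicamycin replicates 1 to 3. Its tunicamycin replicate 1 lay inside the vehicle range, as for Zbtb16. Ltb, a lymphotoxin subunit made by resting T cells, was at -0.12 (95% interval -0.26 to 0.03). Il21 was at 1.05 (95% interval -1.18 to 3.27) and Ifng at -0.57 (95% interval -3.22 to 2.08), both from few counts. Among chemokine receptors and homing genes, 0 of 6 tested genes beside Cxcr6 passed, with a median of -0.07. Ccr7 and S1pr1, which guide naive T cells through lymph nodes, were at -0.08 (95% interval -0.26 to 0.09) and -0.05 (95% interval -0.18 to 0.09). S1pr4 and Cxcr4 were at 0.08 (95% interval -0.09 to 0.24) and -0.06 (95% interval -0.18 to 0.07).

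**Figure D3:**
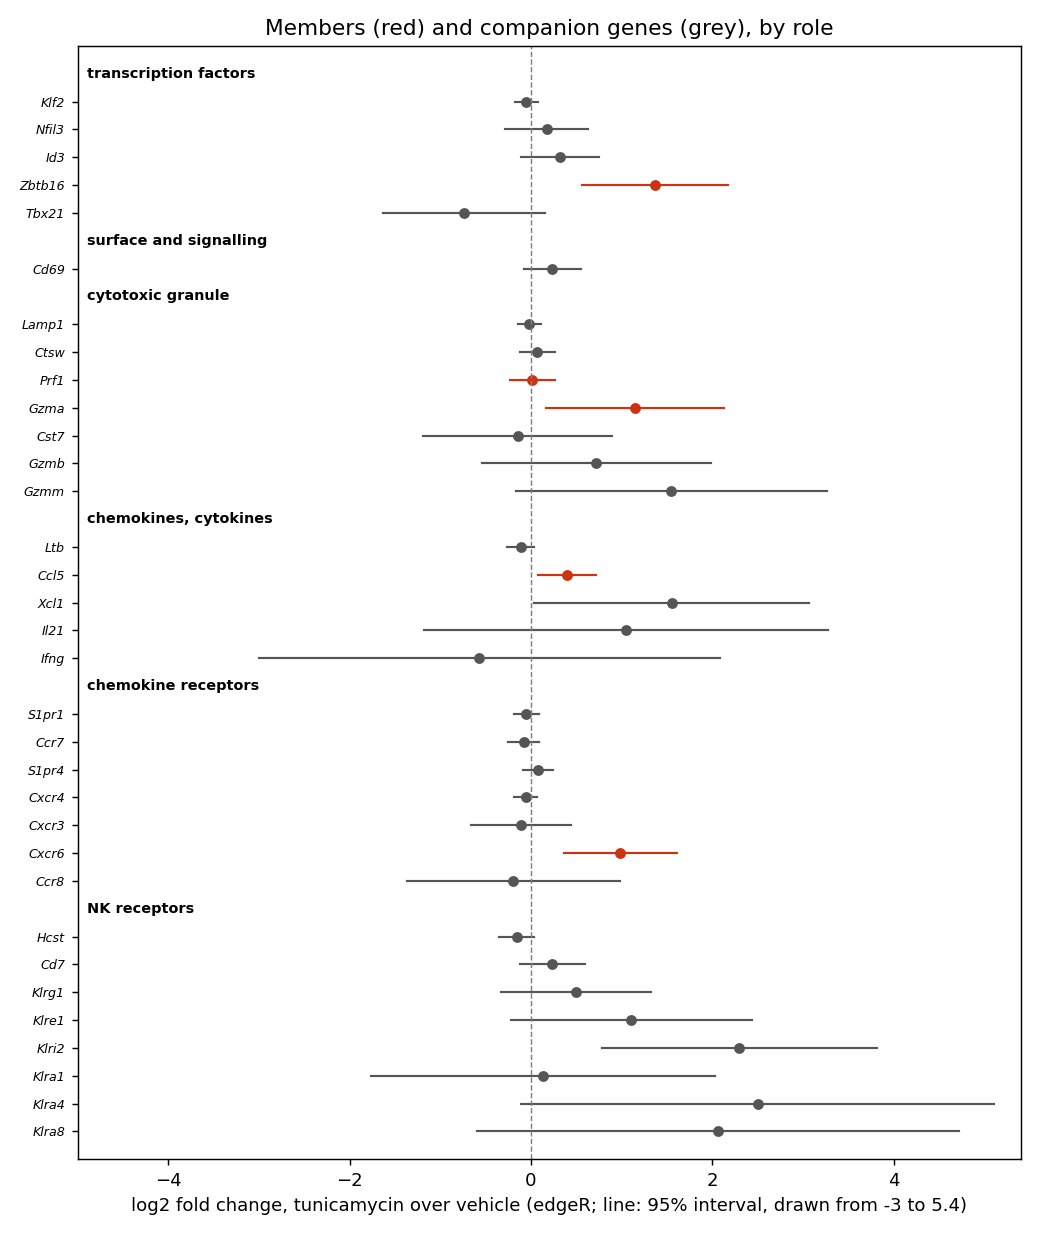
Fitted log2 fold change of tunicamycin over vehicle on the x axis, with 95% intervals from edgeR, for the members in red and the other tested genes of 6 lists in grey, grouped by role. Abundant genes such as Klf2, Lamp1 and S1pr1 have short intervals around 0, and the intervals of Zbtb16, Cxcr6, Ccl5, Gzma, Xcl1 and Klri2 lie above 0.

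Markers of other cells that carry the same genes were read beside the members. Of 21 NK cell receptors and adaptors 9 had a row and 8 were tested. In edgeR 0 of the 8 passed, and 1 had an unadjusted p under 0.05. DESeq2 without its filter on the mean count and limma on log2(TPM + 1) called 0. The fitted value was above 0 for 7 of the 8, against 50.1% of all genes tested, and the median of the 8 was 0.80. Groups did not overlap for 4 of the 8 with tunicamycin higher, against 6.62% of all genes tested. With tunicamycin lower they did not overlap for 1, against 5.95% of all genes tested. Klre1, an NK receptor, was at 1.11 (95% interval -0.22 to 2.44) and Klrg1, a receptor of NK and effector T cells, at 0.49 (95% interval -0.33 to 1.32), while Cd7 was at 0.24 (95% interval -0.12 to 0.59) and Hcst, the adaptor DAP10, at -0.16 (95% interval -0.35 to 0.03). Klri2, an NK receptor named here because of its values, reached 2.30 (95% interval 0.79 to 3.81), with 12, 3 and 5 counts in vehicle and 34, 46 and 60 in tunicamycin. The remaining tested genes of the list had few counts and are also named from their values. Klra4 was at 2.50 (95% interval -0.11 to 5.11), Klra8 at 2.06 (95% interval -0.60 to 4.72) and Klra1 at 0.13 (95% interval -1.76 to 2.03). The summed level of the list was 158 to 184 TPM in vehicle and 148 to 171 TPM in tunicamycin, most of it from Hcst and Cd7. Without these, a choice made after seeing the values because T cells express both, it was 2.20 to 5.66 TPM in vehicle and 5.87 to 7.62 TPM in tunicamycin. Ncr1, the defining NK receptor NKp46, was below the filter on low counts and is named from its values. It had 5, 0 and 2 counts in vehicle and 24, 25 and 4 in tunicamycin replicates 1 to 3. Zbtb16, Cxcr6, Ccl5 and Gzma thus had higher means in the same group as low-level NK receptor transcripts, and the part of these cells in the values was not tested.

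Cd8b1, a CD8 T cell marker, was at 9.47 to 10.8 TPM in vehicle and 10.5 to 11.9 TPM in tunicamycin, with a log2 fold change of 0.04 (95% interval -0.25 to 0.32). Of 14 gamma-delta T cell markers 6 had a row, with a summed level of 7.11 to 16.3 TPM in vehicle and 10.4 to 14.8 TPM in tunicamycin, and in edgeR 0 of 3 tested passed and 0 had an unadjusted p under 0.05. Tcrg-C2 was at 0.80 (95% interval -0.44 to 2.03) and Tcrg-C1 at -0.10 (95% interval -1.27 to 1.07), with Trdv2-2 at -0.38 (95% interval -1.68 to 0.92). Below the filter on low counts, and named from their values, Tcrg-V1 had 0 counts in each vehicle library and 7, 5 and 13 in tunicamycin, and Tcrg-V4 had 3, 0 and 0 counts in vehicle and 16, 5 and 15 in tunicamycin. Trdv4, also below the filter and named from its values, had 9, 0 and 0 counts in vehicle and 0, 0 and 8 in tunicamycin. The few counts of Tcrg-V1 and Tcrg-V4 were higher in the same group as the means of Zbtb16, Cxcr6, Ccl5 and Gzma. The fitted values of Tcrg-C1 and Trdv2-2 were below 0, and the summed level of the list overlapped between the groups. The part of gamma-delta T cells in the values was not tested. The summed plasma cell markers were at 198, 430 and 60.4 TPM in vehicle and 208, 454 and 53.3 TPM in tunicamycin, in replicate order. In both groups replicate 2 was thus highest and replicate 3 lowest. Ccl5 had this order within vehicle and Prf1 within tunicamycin, and no member had it in both groups. The part of plasma cells in the values was not tested. B cell markers, of which 3 of 11 had a row, summed to at most 4.79 TPM in any library. Macrophage and monocyte markers, of which 6 of 11 had a row, summed to at most 13.3 TPM. Regulatory T cell markers, of which 2 of 10 had a row, summed to 72.2 to 94.6 TPM in vehicle and 82.9 to 95.2 TPM in tunicamycin. Neutrophil markers, of which 4 of 9 had a row, summed to at most 3.22 TPM. Ngp had 0, 51 and 10 counts in vehicle and 5, 30 and 7 in tunicamycin, in replicate order. Elane had 0, 35 and 2 counts in vehicle and 13, 34 and 8 in tunicamycin, and Ly6g, named from its values, was at 0 throughout. Markers without a row are not in these sums, so a low sum does not show that the cells were absent.

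**Figure D4:**
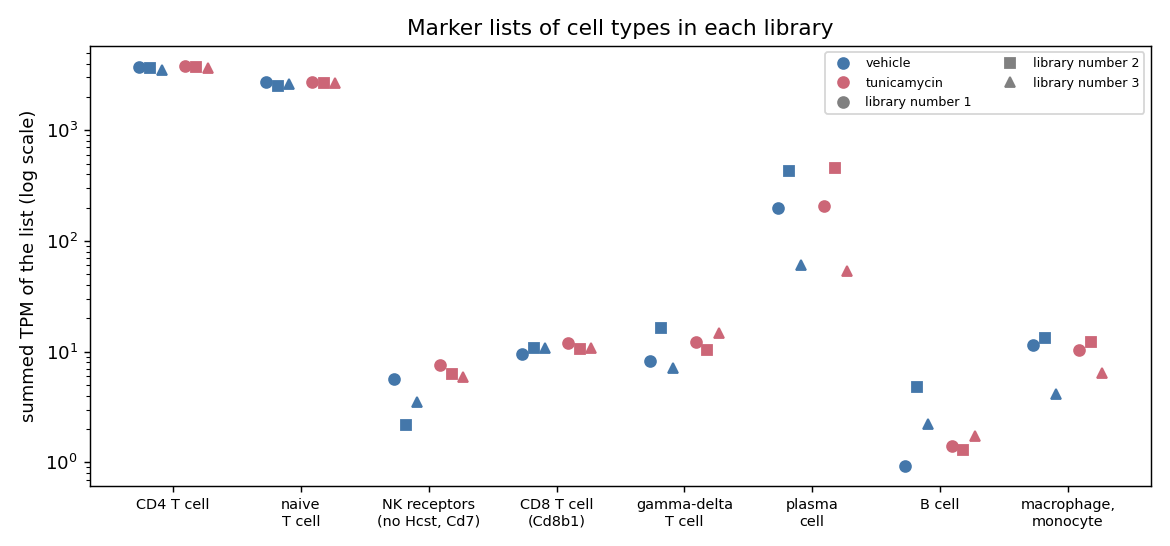
Summed TPM of the markers of each cell type on a log axis, with 1 point per library, blue for vehicle and red for tunicamycin, the shape giving the library number. The CD4 T cell list, mostly genes of T cells in general, and the naive T cell list are highest in all 6 libraries. NK receptors without Hcst and Cd7 run from 2.20 to 7.62 TPM, and Cd8b1 is at 9.47 to 11.9 TPM.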

How the data were processed

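RNA of 6 libraries was sequenced. The tools listed by the submitters' processing notes are bcl2fastq, Salmon and DESeq2, without versions or roles, and the build is GRCm39. The authors deposited estimated counts per gene and TPM values for the same rows. The TPM values of the analysed rows sum to 319120 to 332870 per library, so the rows are a part of the transcriptome and the count totals are not library depths. The annotation behind the counts is not given in the sources used here. Identifiers were matched to symbols for 13627 of 13685 rows. Positions are those of GENCODE M21 on GRCm38 and were not converted.

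Estimated counts were rounded, and edgeR 4.0.16 was run on them in R 4.3.3 (filterByExpr, TMM, robust 2-sided quasi-likelihood F test, Benjamini-Hochberg adjustment over 3613 genes, threshold 0.05). The fit was tested on simulated counts. CPM used TMM-scaled library sizes, and log2 CPM a prior count of 2. Intervals are 95% intervals of the fit. Alternatives used DESeq2 1.42.0, limma 3.58.1, other scalings and filters, a replicate block and fewer libraries. Motifs were searched in the 250 bases before each RefSeq start.

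The members and the lists were chosen with earlier results of these data known. Named beside the members were up to 4 tested genes with the highest mean per list, every listed gene past the threshold, and the 3 genes most like each member. A gene outside this rule is marked as picked from its values.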

Additional observations from a re-analysis of the deposited data

How the results depend on the processing

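Zbtb16, Cxcr6, Ccl5 and Gzma had a log2 fold change above 0 in all 19 alternatives, and Prf1 in 15 of 19. Over the analyses without 1 library the values ran from 1.13 to 1.70 for Zbtb16, 0.68 to 1.24 for Cxcr6, 0.29 to 0.58 for Ccl5, 0.94 to 1.45 for Gzma and -0.03 to 0.10 for Prf1. On log2(TPM + 1) Zbtb16 was at 0.66, a scale that compresses low levels, and Gzma was at 1.74 without both libraries numbered 3, an alternative added after seeing the data. Of the 3 genes most like each member in log2 CPM, 0 remained for Zbtb16 and Prf1 and 1 for each of Cxcr6, Ccl5 and Gzma on log2(TPM + 1). DESeq2's own filter removed genes with a mean count under 2661, so the members, and the listed genes under that mean, had no adjusted p there. Calls on single members differed between alternatives, as counted above, and nothing is read from them, since the members were chosen on this comparison.

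The replicate block called 14 genes higher and 22 lower. With it the members' log2 fold changes were 1.29 for Zbtb16, 0.93 for Cxcr6, 0.41 for Ccl5, 1.11 for Gzma and 0.02 for Prf1. The labels do not say that a number marks a shared source. Deviations from the group means correlated at 0.04, 0.19 and 0.11 between same-numbered libraries over all genes tested, and at 0.30, 0.31 and 0.32 over genes whose mean reached 5 log2 CPM. Each library correlated best with its own number, which is a hint from the data and not from the design. The library names use the same numbers in both groups. Read within numbers 1, 2 and 3, Zbtb16 differed by 0.66, 1.36 and 1.74 log2 CPM, tunicamycin minus vehicle. These differences were 0.48, 0.99 and 1.28 for Cxcr6 and 0.61, 0.18 and 0.44 for Ccl5. For Gzma they were 1.47, 1.93 and -0.18, and for Prf1 -0.17, 0.19 and 0.04. The summed plasma cell markers, picked from their values, were also close within numbers while they differed widely between numbers. In vehicle and tunicamycin they were 198 and 208 TPM for number 1, 430 and 454 TPM for number 2, and 60.4 and 53.3 TPM for number 3. These values and differences are a description, and whether the numbers mark pairs was not tested.

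The analysis as reported called 2 genes higher and 1 lower. Lower calls were 2 with DESeq2 size factors in edgeR, and 0 without a composition factor, without robust estimation, in limma on log2(TPM + 1) and log2(TPM + 0.1), and without both libraries numbered 1 or numbered 2. Higher calls were 1 in limma on log2(TPM + 1) and without both libraries numbered 2. Without the filter on low counts 10 were higher and 6 lower, with DESeq2 4 and 16, and with DESeq2 without its filter, added after seeing the data, 12 and 11. Without 1 library, 1 to 4 were higher and 0 to 1 lower: 1 higher without vehicle replicate 2, 4 higher without vehicle replicate 3, and 0 lower without vehicle replicate 1 or 2 or tunicamycin replicate 2 or 3. The cause of these differences was not tested. Of the 82 listed genes 0 were called in any alternative.

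The low counts of Gzma limit its precision, and each library of a group adds only the spread between libraries.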

Other observations

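Genes of other T cell states were also counted, from lists written with earlier results known. Among 7 tested genes of memory and activated T cells, edgeR called 0, and 0 were under 0.05 in unadjusted p. Their median log2 fold change was -0.04. Lgals1, which encodes galectin-1, was at -0.19 (95% interval -0.38 to 0.00), and Maf, a transcription factor of effector T helper cells, was at -0.01 (95% interval -0.29 to 0.26). The inhibitory receptor genes Pdcd1 and Tigit had values of 0.15 (95% interval -0.70 to 0.99) and 0.00 (95% interval -0.95 to 0.95). Among 6 tested naive T cell genes, edgeR again called 0, with 0 under 0.05 in unadjusted p and a median of -0.04. DESeq2 without its filter on the mean count and limma on log2(TPM + 1) called 0 in both lists.

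Klrb1, a lectin receptor of NK and innate-like T cells chosen after its values were seen, was below the filter on low counts. It had 0 counts in each vehicle library and 10, 8 and 3 counts in tunicamycin replicates 1 to 3. The 0 counts allow up to 0.40, 0.40 and 0.33 CPM in vehicle replicates 1 to 3 (3 counts per library, for counting error only). Other listed genes below the filter, named from their values, did not share one direction. Gzmc had 0 counts in each vehicle library and 1, 7 and 2 in tunicamycin. Ccl3 had 6, 0 and 17 counts in vehicle and 1, 4 and 7 in tunicamycin. For S1pr5 they were 14, 0 and 6 in vehicle and 7, 2 and 8 in tunicamycin. Count totals were higher in the tunicamycin libraries. Of 23 unfolded protein response genes 9 had a row and 8 were tested. The other 14 were not analysed, so the values do not describe the response as a whole. Among the 8, edgeR, DESeq2 without its filter on the mean count, and limma on log2(TPM + 1) called 0, and the median was -0.01. DESeq2 with that filter also called 0, but genes with a mean count under 2661 had no adjusted p there. Calr, a chaperone of the endoplasmic reticulum, was the 1 gene under 0.05 in unadjusted edgeR p, at -0.14.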
